A study of Mus musculus with 8 samples.

Results

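The kidney enzymes and receptors of arachidonic acid signalling were followed in RNA from kidney tissue of 8 C57/BL6 mice, 4 aged and 4 adult. Each animal gave 1 library. The human angiotensin receptor type 1 gene was present in all 8 animals as its haplotype II (Hap-II), and all were fed a western diet, so the adult animals share the human gene and the diet with the aged ones. The series title calls the mice hypertensive and overexpressing that receptor. The sources used here do not give how the human gene is driven, the ages in numbers or the sex of the animals. The set holds 9 genes of the 30153 gene identifiers measured, chosen by name: the cytochrome P450 genes Cyp4a10, Cyp4a14, Cyp2j5 and Cyp2c44, the prostaglandin synthases Ptgs1 and Ptgds, the prostaglandin E2 receptors Ptger1 and Ptger3, and the prostaglandin-degrading enzyme Hpgd. All 9 had a row in the table, Cyp2c44 under its other symbol Cyp2c23, and all 9 passed the minimum mean of 1 TPM. TPM is a relative abundance of transcripts corrected for transcript length, so levels can be set side by side between genes, and it carries no read depth.

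Arachidonic acid released from membranes is taken up by separate enzyme families in the kidney. Omega-hydroxylases of the CYP4A family put a hydroxyl group on the end of its chain, and the product constricts renal arterioles and inhibits tubular sodium transport. Epoxygenases of the CYP2C and CYP2J families make epoxides that dilate vessels and lower sodium reabsorption. Cyclooxygenases start the route to prostaglandins, of which prostaglandin E2 acts on the thick ascending limb and collecting duct through its EP receptors. Angiotensin II signalling and salt handling are known to interact with each of these routes.

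The Cyp4a genes lie in a cluster of near copies, so the start of the coding sequence is shown for the members Cyp4a10 and Cyp4a14 and for the relatives with which they share sequence. The first 60 bases from the start codon are given 5′ to 3′, from GENCODE M21 transcripts on GRCm38, with capitals at the bases that differ from Cyp4a10.
Cyp4a10: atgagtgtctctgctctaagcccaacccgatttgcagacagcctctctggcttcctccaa
Cyp4a14: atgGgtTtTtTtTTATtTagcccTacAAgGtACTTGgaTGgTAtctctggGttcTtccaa
Cyp4a31: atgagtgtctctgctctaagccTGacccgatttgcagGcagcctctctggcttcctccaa
Cyp4a32: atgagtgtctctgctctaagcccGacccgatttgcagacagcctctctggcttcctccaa
Cyp4a12a: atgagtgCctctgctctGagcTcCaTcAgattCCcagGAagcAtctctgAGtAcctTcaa
Over the whole coding sequence Cyp4a14 was identical to Cyp4a10 at 75.4% of bases, Cyp4a31 at 96.6%, Cyp4a32 at 97.2% and Cyp4a12a at 80.2%. Of the distinct 31-base words in Cyp4a10 transcripts, 44.9% also occurred in another gene, most of them in Cyp4a32. In Cyp4a14 that share was 1.99%, and in Cyp2j5 3.11%. Ptgs1 shared 0.155% of its words, and Cyp2c44, Ptgds, Ptger1, Ptger3 and Hpgd shared 0%. The level of Cyp4a10 is therefore uncertain against its near copies, and it is also given summed with Cyp4a31 and Cyp4a32. The library kit keeps strand, but the sources used here do not say whether the quantification used it, so values of Ptger1 and Ptgs1 could not be separated from those of genes overlapping them on the opposite strand. Of the Ptgs1 exon bases 3.81% lie opposite a gene named Gm43621.

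The libraries were not uniform within the age groups, and this touches nearly every value that follows. Summed over Ddx3y, Kdm5d, Eif2s3y and Uty, 4 genes on the Y chromosome, replicates 3 and 4 of both age groups had 34.7 to 50.6 TPM, and replicates 1 and 2 of both had 0.485 to 2.30 TPM. The labels give no such split, and each age group holds 2 libraries of each class. Kap, a kidney transcript under androgen control in mouse, took 6.24% ± 0.92 of the TPM scale in libraries with Y-linked transcripts and 1.52% ± 0.593 in those without (SD, n = 4 each). Protein-coding mitochondrial transcripts took 35.9% ± 8.48 in aged and 22.8% ± 3.02 in adult kidneys (SD, n = 4 each). They took 33.6% ± 10.5 in libraries with Y-linked transcripts and 25.0% ± 6.08 in those without (SD, n = 4 each). Within each age group both libraries with Y-linked transcripts had a higher share than both without. Markers of the proximal tubule (9 genes, such as Lrp2 and Slc34a1) summed to 563 to 1867 TPM in aged and 710 to 2304 TPM in adult kidneys. Markers of the thick ascending limb (Umod, Slc12a1, Cldn16, Egf) summed to 218 to 1707 TPM and 321 to 1871 TPM in the same groups. All 9 and all 4 of these genes were above 0 in every library.

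Averaged over the 8 libraries, Cyp2j5 was the highest of the 9 genes at 468 TPM, followed by Cyp4a10 at 109 and Cyp4a14 at 98.7 TPM. Cyp2c44 averaged 27.3, Ptgds 15.1, Hpgd 13.9, Ptger3 11.6, Ptgs1 7.57 and Ptger1 1.70 TPM. The spread between libraries was widest for Cyp4a14, with a coefficient of variation of 117%, and narrowest for Cyp2j5, with 33.7%. Within each of the 8 libraries Cyp2j5 lay above Cyp4a10, by at least 2.34-fold, and Ptgs1 above Ptger1. The other neighbours in this order changed places between libraries, the higher mean being the higher value in 4 to 6 of the 8, so their order was not set beyond the spread. Ptger1 was the lowest gene and lay close to the minimum for testing, and its highest library, with 3.62 TPM, was still below the lowest Ptgs1 library, with 3.68 TPM.

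The first comparison asks whether these genes differ between aged and adult kidneys. No member passed the test by age. The 2 omega-hydroxylases had lower means in aged kidneys, but libraries of each age group ranged over more than the difference. Over all genes, limma called 0 of 11796 genes at a Benjamini-Hochberg adjusted p under 0.05, a background of 0% called, with 400 genes at an unadjusted p under 0.05. Of the 9 members 0 were called, and the limma adjusted p of each was 1.00. Aged and adult libraries overlapped for each of the 9 members, and did not overlap for 290 of the 11796 genes (2.46%). Log2 fold changes were negative for 7 members and positive for 2, with a median of −0.23, beside a median of −0.11 over all genes, of which 65.0% were negative. The all-gene median was −0.01 after division by median-ratio size factors and 0.15 with mitochondrial genes removed. The balance of the members moved with it, to 5 positive and 4 negative with a median of 0.032 with mitochondrial genes removed, and it was 0 positive and 9 negative without aged replicate 2 (median −0.47) or adult replicate 3 (−0.56).

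Cyp4a10 (chr4:115518264-115533649, + strand, ENSMUSG00000066072), an omega-hydroxylase, had 94.0, 237, 19.6 and 26.0 TPM in aged kidneys and 275, 121, 39.7 and 63.4 TPM in adult kidneys, each in the order of replicates 1 to 4 (coordinates are those of GENCODE M21 on GRCm38 throughout). The low libraries were replicates 3 and 4 of both groups. Its means were 94.1 ± 101 TPM in aged and 125 ± 106 TPM in adult kidneys (SD, n = 4 each), with a log2 fold change of −0.70 (SE 0.76, limma adjusted p = 1.00). That value ranged from −1.37 without aged replicate 2 to −0.19 without aged replicate 3, and was −0.42 when Cyp4a31 and Cyp4a32 were added to Cyp4a10. Cyp4a14 (chr4:115486200-115496142, − strand, ENSMUSG00000028715), its relative in the CYP4A family, had 122, 240, 1.64 and 1.16 TPM in aged and 291, 120, 8.12 and 5.48 TPM in adult kidneys. The same 2 libraries of each group were low, and in the aged group they lay near the floor of the scale. The log2 fold change was −0.90 (SE 1.64). It was positive with aged replicate 3, aged replicate 4 or adult replicate 1 left out, up to 0.17, and 0.23 with array weights.

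Cyp2j5 (chr4:96628773-96664154, − strand, ENSMUSG00000052520), an epoxygenase abundant in the proximal tubule, had 227, 564, 356 and 644 TPM in aged and 644, 315, 439 and 559 TPM in adult kidneys. Its high and low libraries did not follow the replicate numbers. It averaged 448 ± 191 TPM in aged and 489 ± 144 TPM in adult kidneys (SD, n = 4 each), a log2 fold change of −0.19 (SE 0.35), with a positive sign in 3 alternatives (0.17 with quantile normalization, 0.11 with mitochondrial genes removed, 0.10 without aged replicate 1). Cyp2c44 (chr19:44005022-44029208, − strand, ENSMUSG00000025197), an arachidonic acid epoxygenase of kidney and liver, had 27.7, 87.0, 5.43 and 4.68 TPM in aged and 46.3, 24.5, 9.37 and 12.9 TPM in adult kidneys. Replicates 3 and 4 were again the low ones in both groups, and aged replicate 2 was the highest of all 8. Its mean was higher in aged kidneys, at 31.2 ± 38.7 TPM, than in adult kidneys, at 23.3 ± 16.7 TPM (SD, n = 4 each). On the log scale the direction was the opposite, with a log2 fold change of −0.23 (SE 0.80). That value was positive with aged replicate 3, aged replicate 4 or adult replicate 1 left out (up to 0.31) and with mitochondrial genes removed.

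Ptgs1 (chr2:36230426-36252272, + strand, ENSMUSG00000047250), which encodes the constitutive cyclooxygenase, had 8.47, 13.2, 5.54 and 5.11 TPM in aged and 9.92, 8.30, 3.68 and 6.36 TPM in adult kidneys. The groups spanned nearly the same range, and the log2 fold change was 0.15 (SE 0.36). Ptgds (chr2:25466709-25470046, − strand, ENSMUSG00000015090), which makes prostaglandin D2, had 24.9, 14.5, 7.06 and 6.74 TPM in aged and 24.7, 23.4, 7.91 and 11.6 TPM in adult kidneys. Aged replicate 1 and adult replicate 1 were level, and the log2 fold change was −0.37 (SE 0.46, from −0.72 to −0.14 with 1 library left out). Ptgds is best known from meninges and choroid plexus. Of 3 marker genes of those tissues (Ttr, Kcnj13, Slc6a13), some of which the kidney may express, the summed level was 78.2 to 164 TPM in aged and 115 to 191 TPM in adult kidneys, and their part in the Ptgds value was not tested.

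Ptger1 (chr8:83666678-83672753, + strand, ENSMUSG00000019464), the calcium-mobilizing EP1 receptor, had 1.71, 1.41, 1.27 and 1.68 TPM in aged and 2.10, 3.62, 0.933 and 0.845 TPM in adult kidneys. Aged libraries were close together and lay inside the adult range, and the log2 fold change was −0.09 (SE 0.33). It was positive with size factors, mitochondrial genes removed, array weights or adult replicate 2 left out, at most 0.24. Ptger3 (chr3:157566892-157645888, + strand, ENSMUSG00000040016), the EP3 receptor that opposes cyclic AMP in the tubule, had 14.5, 14.9, 4.28 and 4.96 TPM in aged and 22.0, 19.2, 6.75 and 6.46 TPM in adult kidneys. Within each class the 2 aged values were lower than the 2 adult ones, but the groups overlapped through the low libraries. The log2 fold change was −0.45 (SE 0.49, from −0.71 to −0.17 with 1 library left out). Hpgd (chr8:56294585-56321043, + strand, ENSMUSG00000031613), the dehydrogenase that inactivates prostaglandins, had 25.9, 21.9, 6.26 and 4.33 TPM in aged and 18.6, 23.7, 5.17 and 5.04 TPM in adult kidneys. High and low libraries came in equal number in both groups, and the log2 fold change was 0.10 (SE 0.62).

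**Figure D1:**
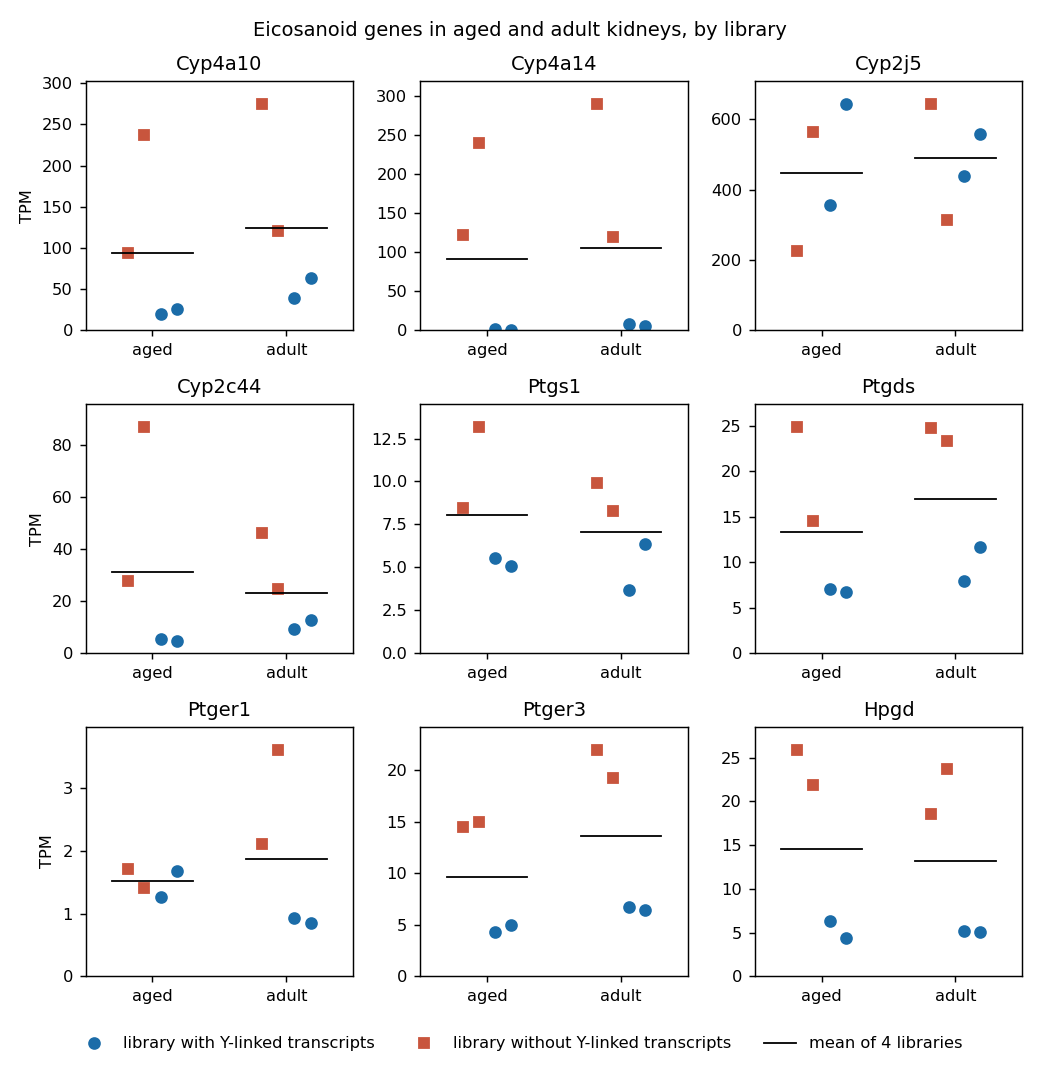
TPM of each of the 9 genes in aged (left) and adult (right) kidneys, 1 point per library, on linear axes from 0, with circles for libraries with Y-linked transcripts, squares for those without, and a line at the mean of 4 libraries. Aged and adult points overlap in all 9 panels, while circles lie below squares within both groups for Cyp4a10, Cyp4a14, Cyp2c44, Ptgs1, Ptgds, Ptger3 and Hpgd.

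Because the class of Y-linked transcripts is balanced over age, it could be added to the fit as a covariate. The fold changes stayed as they were and their standard errors shrank, to 0.40 for Cyp4a14, 0.37 for Cyp4a10, 0.17 for Ptger3 and 0.19 for Hpgd. limma then called 0 genes and 0 members, with adjusted p-values of the members from 0.508 for Ptger3 to 0.970 for Ptger1. Ptger3 and Cyp4a14 were among the 998 genes with an unadjusted p under 0.05 in that fit, of which none passed after adjustment.

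The age difference was also taken within each class, 2 aged against 2 adult libraries. In libraries with Y-linked transcripts the log2 fold change was −1.69 (SE 0.41) for Cyp4a14, −1.12 (SE 0.37) for Cyp4a10 and −0.99 (SE 0.40) for Cyp2c44, with limma adjusted p-values of 0.320, 0.669 and 0.911 in that order of genes. In libraries without them the same genes had −0.12 (SE 0.51), −0.29 (SE 0.55) and 0.53 (SE 0.57). Ptger3 had −0.44 with and −0.46 without, and Ptgds −0.43 and −0.32. Ptger1 had 0.39 with and −0.57 without Y-linked transcripts. The difference between the classes in the age effect, tested as an interaction term, was −1.56 (SE 0.67, limma adjusted p = 1.00) for Cyp4a14, −1.53 (SE 0.73) for Cyp2c44 and 0.95 (SE 0.46) for Ptger1, and none of the 9 passed. With 1 library left out these terms ranged from −2.20 to −0.93 for Cyp4a14, from −2.33 to −0.72 for Cyp2c44 and from 0.67 to 1.24 for Ptger1. With pseudocounts of 0.1 and 5 TPM they were −2.07 and −0.75 for Cyp4a14, and 1.45 and 0.39 for Ptger1. Aged libraries with Y-linked transcripts had only 1.64 and 1.16 TPM of Cyp4a14. Its age difference in that class therefore depends on the pseudocount. Over all genes limma called 4 interaction terms (0.0339%), Gm10925, Gm12918, Gm28438 and Gm4737, named because they were the ones called, and 0 of the 9 members.

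**Figure D2:**
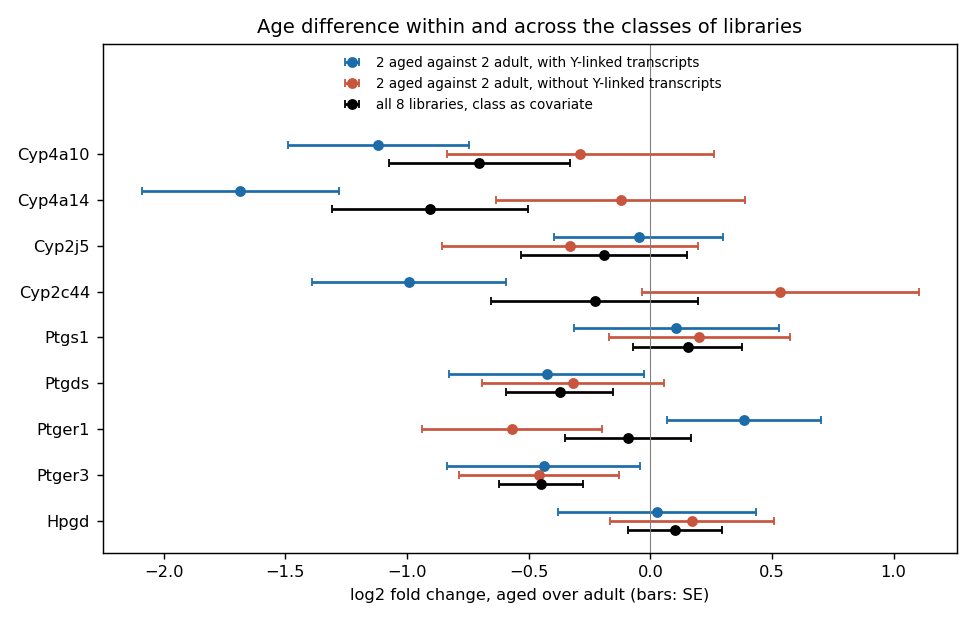
Log2 fold change of aged over adult kidneys for each gene in libraries with Y-linked transcripts (blue, 2 against 2), in those without (red, 2 against 2) and over all 8 with the class as covariate (black), with bars for the standard error. The blue points of Cyp4a10, Cyp4a14 and Cyp2c44 lie lowest, at −1.12, −1.69 and −0.99, and the 3 estimates of Ptger3 lie close together.

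The second comparison sets the classes of libraries against each other, and here most members differed. With age in the fit, 7 of the 9 members were lower in libraries with Y-linked transcripts and 0 were higher by limma with Benjamini-Hochberg adjustment, against a background of 11.3% of 11796 genes called lower and 1.13% called higher (1331 and 133 genes, 12.4% in all). The 7 were Cyp4a14, Cyp4a10, Cyp2c44, Hpgd, Ptger3, Ptgds and Ptgs1. Cyp2j5 and Ptger1 did not pass. In these same 7 genes the classes did not overlap, as in 21.3% of all genes in that direction. The scale moved with the class too: the median log2 fold change over all genes was −0.46, with 89.2% of genes negative, and that of the members was −1.49. Dividing by size factors brought the all-gene median to 0.00 and the calls to 338 higher and 305 lower (2.89% and 2.61%, 5.49% in all). On that scale 5 members were called, all lower, and Ptgs1 and Ptgds no longer passed. The count of 1464 genes called in all fell to 392 and 400 when aged replicates 2 and 3 were left out in turn, and to 434, 543, 809 and 898 when adult replicates 3, 1, 4 and 2 were, while 6 or 7 members were called whichever single library was left out. The 5 members called with size factors were called in each of these 8 fits. In bulk tissue fewer cells of a type and less RNA per cell cannot be told apart.

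The omega-hydroxylase Cyp4a14 differed most. It averaged 4.10 ± 3.30 TPM in libraries with Y-linked transcripts and 193 ± 85.8 TPM in those without (SD, n = 4 each), 47.1-fold lower, with a log2 fold change of −5.39 (SE 0.40, limma adjusted p = 7.41e-05). The call held in the aged libraries alone (−6.17, adjusted p = 0.000894 by limma) and in the adult libraries alone (−4.61, 0.0159), each with 2 libraries per class. Cyp4a10 averaged 37.2 ± 19.4 TPM with and 182 ± 87.8 TPM without Y-linked transcripts, 4.89-fold lower (log2 fold change −2.26, SE 0.37, limma adjusted p = 0.00695). Summed with Cyp4a31 and Cyp4a32, a step added after seeing the data, its level was 65.7 and 99.2 TPM in the aged and 93.9 and 142 TPM in the adult libraries with Y-linked transcripts, and 147 and 432 TPM in the aged and 462 and 219 TPM in the adult libraries without. The summed log2 fold change was −1.54 (SE 0.36, limma adjusted p = 0.0290).

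Since a ratio within a library does not depend on the scale of that library, the Cyp4a genes were also set against each other. These ratios were chosen after the values were seen and are given without a test. Cyp4a14 over Cyp4a10 was 0.0837 and 0.0447 in aged and 0.205 and 0.0864 in adult libraries with Y-linked transcripts. In libraries without, it was 1.30 and 1.02 in aged and 1.06 and 0.992 in adult kidneys. Both genes were thus at about the same level in 1 class, and Cyp4a14 was far below Cyp4a10 in the other. Cyp4a10 over Cyp4a31 ranged from 0.361 to 0.813 with and from 1.22 to 1.78 without Y-linked transcripts, but shared sequence limits this ratio.

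**Figure D3:**
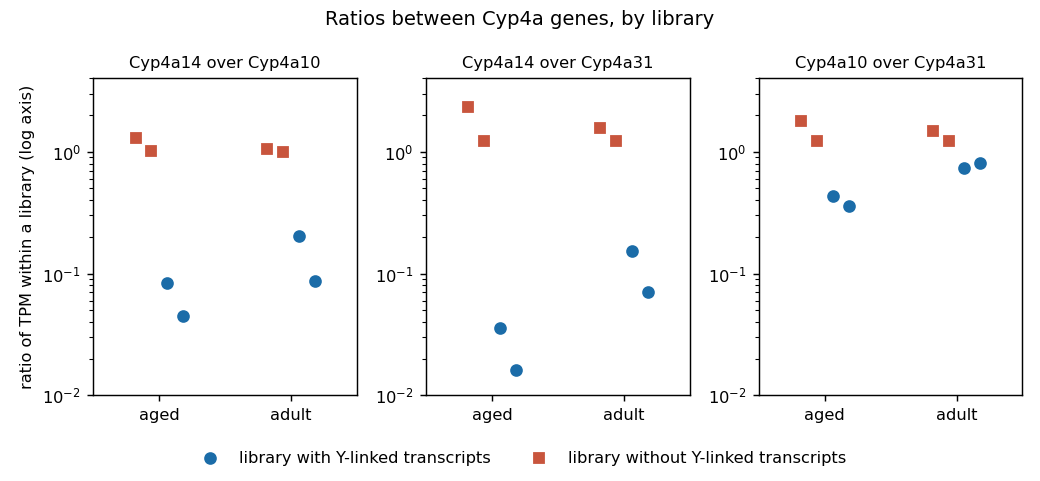
Ratios of TPM within each library on a log axis, Cyp4a14 over Cyp4a10, Cyp4a14 over Cyp4a31 and Cyp4a10 over Cyp4a31, in aged (left) and adult (right) kidneys, with circles for libraries with and squares for libraries without Y-linked transcripts. Ratios of Cyp4a14 to Cyp4a10 lie between 0.0447 and 0.205 in circles and between 0.992 and 1.30 in squares.

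The epoxygenases went separate ways. Cyp2c44 averaged 8.11 ± 3.82 TPM with and 46.4 ± 28.7 TPM without Y-linked transcripts (SD, n = 4 each), 5.72-fold lower, a log2 fold change of −2.29 (SE 0.42, limma adjusted p = 0.0119). Cyp2j5 averaged 500 ± 127 TPM with and 437 ± 198 TPM without, a log2 fold change of 0.28 (SE 0.34, limma adjusted p = 0.520). It was 0.84 with size factors (adjusted p = 0.103) and −0.01 without aged replicate 1. Cyp2j5 was the single member of the 9 with a higher mean in libraries with Y-linked transcripts.

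Among the prostaglandin enzymes, Hpgd averaged 5.20 ± 0.798 TPM with and 22.5 ± 3.10 TPM without Y-linked transcripts (SD, n = 4 each), 4.33-fold lower, a log2 fold change of −1.92 (SE 0.19, limma adjusted p = 0.000434). The 4 low libraries lay within 4.33 to 6.26 TPM and the 4 high ones within 18.6 to 25.9 TPM. Ptgds averaged 8.34 ± 2.26 TPM with and 21.9 ± 4.95 TPM without, 2.62-fold lower (−1.29, SE 0.22, limma adjusted p = 0.00804), and its adjusted p was 0.123 with size factors and 0.129 with quantile normalization. Ptgs1 averaged 5.17 ± 1.12 TPM with and 9.97 ± 2.27 TPM without, 1.93-fold lower (−0.83, SE 0.22, limma adjusted p = 0.0428). This was the least stable of the 7 calls: it was lost with size factors (−0.34, 0.309), quantile normalization (0.364), mitochondrial genes removed (0.116), no filter (0.0762), and without aged replicate 2 (0.144), 3 (0.117) or 4 (0.0571) or adult replicate 1 (0.108), 2 (0.0673) or 3 (0.129). Hpgd over Ptgs1 within a library was 0.792 to 1.41 with and 1.66 to 3.06 without Y-linked transcripts.

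Of the receptors, Ptger3 averaged 5.62 ± 1.18 TPM with and 17.7 ± 3.60 TPM without Y-linked transcripts (SD, n = 4 each), 3.14-fold lower, a log2 fold change of −1.49 (SE 0.17, limma adjusted p = 0.000942). Ptger1 averaged 1.18 ± 0.379 TPM with and 2.21 ± 0.980 TPM without, and its classes overlapped (−0.53, SE 0.26, limma adjusted p = 0.154). In the aged kidneys Ptger1 was level in both classes, and in the adult kidneys the 2 libraries with Y-linked transcripts were lowest. Ptger3 is known from the thick ascending limb and collecting duct. Thick ascending limb markers summed to 218 to 450 TPM with and 845 to 1871 TPM without Y-linked transcripts (p = 0.0286 by exact permutation, two-sided, which is the lowest this design allows), and limma called 4 of 4 of them lower. Markers of principal cells summed to 59.4 to 126 and 148 to 290 TPM (2 of 5 tested genes lower), of the distal convoluted tubule to 51.1 to 128 and 136 to 363 TPM (1 of 3), and of intercalated cells to 35.1 to 62.2 and 76.8 to 96.3 TPM (1 of 4), each given with the libraries with Y-linked transcripts first. Proximal tubule markers overlapped, with 645 to 1644 and 563 to 2304 TPM in the same order (1 of 9 higher, 1 of 9 lower, exact permutation p = 0.571). Their median log2 fold change was still −0.86, beside −0.46 over all genes. That median was −1.78 for the thick ascending limb, −1.34 for the distal convoluted tubule, −1.03 for principal cells and −0.77 for intercalated cells. Over all genes 11.3% were called lower and 1.13% higher. Macrophage markers summed to 13.3 to 39.0 and 38.1 to 65.2 TPM (1 of 4 lower). Red cell markers, which include the globin genes, summed to 1116 to 2768 and 933 to 14661 TPM and overlapped (2 of 5 lower, median log2 fold change −1.96, exact permutation p = 0.143). The part of these markers in the differences of the members was not tested.

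**Figure D4:**
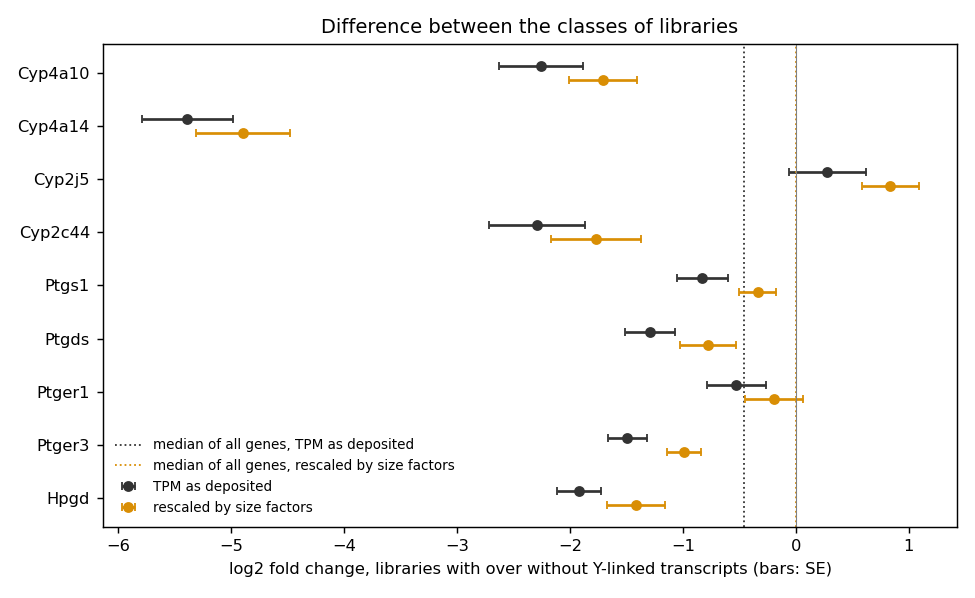
Log2 fold change of libraries with over libraries without Y-linked transcripts for the 9 genes, from TPM as deposited (black) and after division by size factors (orange), with bars for the standard error and dotted lines at the median of all genes on each scale. Cyp4a14 lies lowest at −5.39 and −4.90, and Cyp2j5 is the one gene above 0, at 0.28 and 0.84.

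Promoter sequence was found in the RefSeq table (GRCm38.p6) for 5 of the 9 members. It covers 250 bases before to 50 bases after the start of each gene in that table. These starts are not always those of the GENCODE coordinates given above. The window of Ptgds lies wholly inside the GENCODE span of that gene. The windows of Cyp2j5 and Hpgd are shown. Cyp2j5 is the one of these 5 that was not called between the classes. Hpgd is the one of these 5 with the smallest spread within the classes relative to its mean. Capitals mark letters that match a nuclear receptor motif (AGGTCA) or a TATA box (TATAAA), searched on both strands, in a sequence given 5′ to 3′ along the gene. Cyp2j5 is at chr4:96664070-96664369 (− strand) and Hpgd at chr8:56294302-56294601 (+ strand).
Cyp2j5: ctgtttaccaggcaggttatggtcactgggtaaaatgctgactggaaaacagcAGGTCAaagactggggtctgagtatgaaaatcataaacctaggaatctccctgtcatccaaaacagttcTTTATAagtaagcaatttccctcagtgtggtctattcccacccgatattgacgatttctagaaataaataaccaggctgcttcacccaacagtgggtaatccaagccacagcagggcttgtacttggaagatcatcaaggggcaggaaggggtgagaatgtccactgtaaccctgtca
Hpgd: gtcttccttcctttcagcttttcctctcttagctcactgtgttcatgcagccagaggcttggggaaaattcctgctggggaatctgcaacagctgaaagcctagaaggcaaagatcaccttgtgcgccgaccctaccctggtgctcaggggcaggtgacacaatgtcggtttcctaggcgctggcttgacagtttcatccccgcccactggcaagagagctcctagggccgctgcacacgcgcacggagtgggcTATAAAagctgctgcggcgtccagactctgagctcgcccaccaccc
The window of Cyp2j5 held 1 nuclear receptor motif and 1 TATA box, which lies on the opposite strand, and that of Hpgd held 1 TATA box and 0 nuclear receptor motifs. Among 32851 promoters of the same length 16.3% held the nuclear receptor motif and 13.6% a TATA box. The window of Ptgs1 held 1 androgen receptor motif (AGAACA), present in 19.0% of all promoters, and those of Ptgds and Ptger3 held none of the motifs searched. The direct repeat 1 (the nuclear receptor motif repeated with a spacer of 1 base) occurred in 0.0396% of all promoters and in none of the 5. A match is a description of letters only.

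The members were then placed among 62 other genes of the same routes, of which 36 reached the minimum. By age limma called 0 of these 36 (adjusted p, Benjamini-Hochberg), with 8 positive and 28 negative log2 fold changes and a median of −0.13, beside −0.11 over all genes. With mitochondrial genes removed the signs turned to 29 positive and 11 negative among 40 genes above the minimum (median 0.099), beside 0.15 over all genes. The smallest p in each group of the pathway did not pass either. They belonged to the phospholipase Pla2g5 (log2 fold change −0.89), the prostamide synthase Prxl2b (Fam213b in the table, −0.67), the prostaglandin F receptor Ptgfr (−0.25), the reductase Ptgr1 (−0.35), the omega-hydroxylase Cyp4a31 (−0.29), Cyp2j11 (−0.38) and the lipoxygenase-activating protein Alox5ap (−0.48), each with a limma adjusted p of 1.00. Ptgs2, the inducible cyclooxygenase, reached 1.06 TPM at most and was below the minimum. Among prostaglandin receptors below the minimum Ptger4 reached 1.56, Ptgir 0.792 and Ptger2 0.197 TPM, and Ptgdr was listed at 0 in all 8 libraries.

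Between the classes 15 of these 36 genes were called by limma, 3 higher and 12 lower with Y-linked transcripts, against the background of 1.13% and 11.3%. With size factors the split was 6 higher and 4 lower. The count fell to 8 without aged replicate 2, without aged replicate 3 or without adult replicate 3. The 3 higher genes were CYP enzymes. Cyp4a12a, which makes the omega-hydroxylated product of arachidonic acid in mouse kidney, had 31.3 and 62.8 TPM in aged and 16.0 and 39.7 TPM in adult libraries with Y-linked transcripts. It had 0.357 and 1.20 TPM in aged and 0.653 and 0.373 TPM in adult libraries without. It was 58.0-fold higher (log2 fold change 4.42, SE 0.34, limma adjusted p = 9.55e-05), opposite in direction to Cyp4a14 and Cyp4a10. Cyp4a12a shares 62.2% of its 31-base words with Cyp4a12b, so the 2 are uncertain against each other. Cyp2j13, a relative of Cyp2j5, averaged 94.2 ± 43.1 TPM with and 0.267 ± 0.0945 TPM without (6.13, SE 0.30, limma adjusted p = 3.50e-06). Cyp4b1, of a neighbouring CYP4 family, averaged 900 ± 280.4 TPM with and 148 ± 68.5 TPM without (2.68, SE 0.39, limma adjusted p = 0.00376).

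Among the 12 lower genes the carbonyl reductase Cbr1, which can convert prostaglandin E2, averaged 20.3 ± 7.23 TPM with and 335 ± 45.8 TPM without Y-linked transcripts (SD, n = 4 each), a log2 fold change of −4.03 (SE 0.19, limma adjusted p = 2.57e-06). Its relative Cbr3 averaged 1.08 ± 0.483 and 4.84 ± 1.26 TPM in the same order. The prostaglandin exporter Abcc4 averaged 2.19 ± 0.686 TPM with and 10.9 ± 6.35 TPM without (−1.77, SE 0.37, limma adjusted p = 0.0190). For Ptgfr the means were 4.16 ± 1.14 with and 12.9 ± 4.21 TPM without (−1.40, SE 0.26, limma adjusted p = 0.0117). The prostaglandin E synthase Ptges averaged 3.54 ± 1.03 TPM with and 9.14 ± 4.15 TPM without (−1.10, SE 0.31, limma adjusted p = 0.0492). Also lower were Prxl2b, Pla2g5, Pla2g12a, the leukotriene C4 synthase Ltc4s, Cyp4f16, Cyp2j6 and the epoxide hydrolase Ephx1, with log2 fold changes from −2.03 (Ltc4s) to −0.75 (Cyp2j6). Ephx2, the soluble epoxide hydrolase that clears epoxides of arachidonic acid, averaged 174 ± 38.1 TPM with and 88.0 ± 36.6 TPM without and did not pass (limma adjusted p = 0.0525), but passed with size factors. By role, 2 of 4 tested genes of arachidonate release, 3 of 9 of prostanoid synthesis and 1 of 2 receptors were lower. So were 2 of 5 of transport and breakdown and 1 of 4 of the lipoxygenase route. Of 6 omega-hydroxylases 1 was lower and 2 higher, and of 6 epoxygenases and epoxide hydrolases 2 were lower and 1 higher. Over all genes 11.3% were called lower and 1.13% higher. With size factors 0 receptors, omega-hydroxylases, epoxygenases or epoxide hydrolases were lower, and each other role had 1 lower gene. On that scale 2.61% of all genes were called lower and 2.89% higher.

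**Figure D5:**
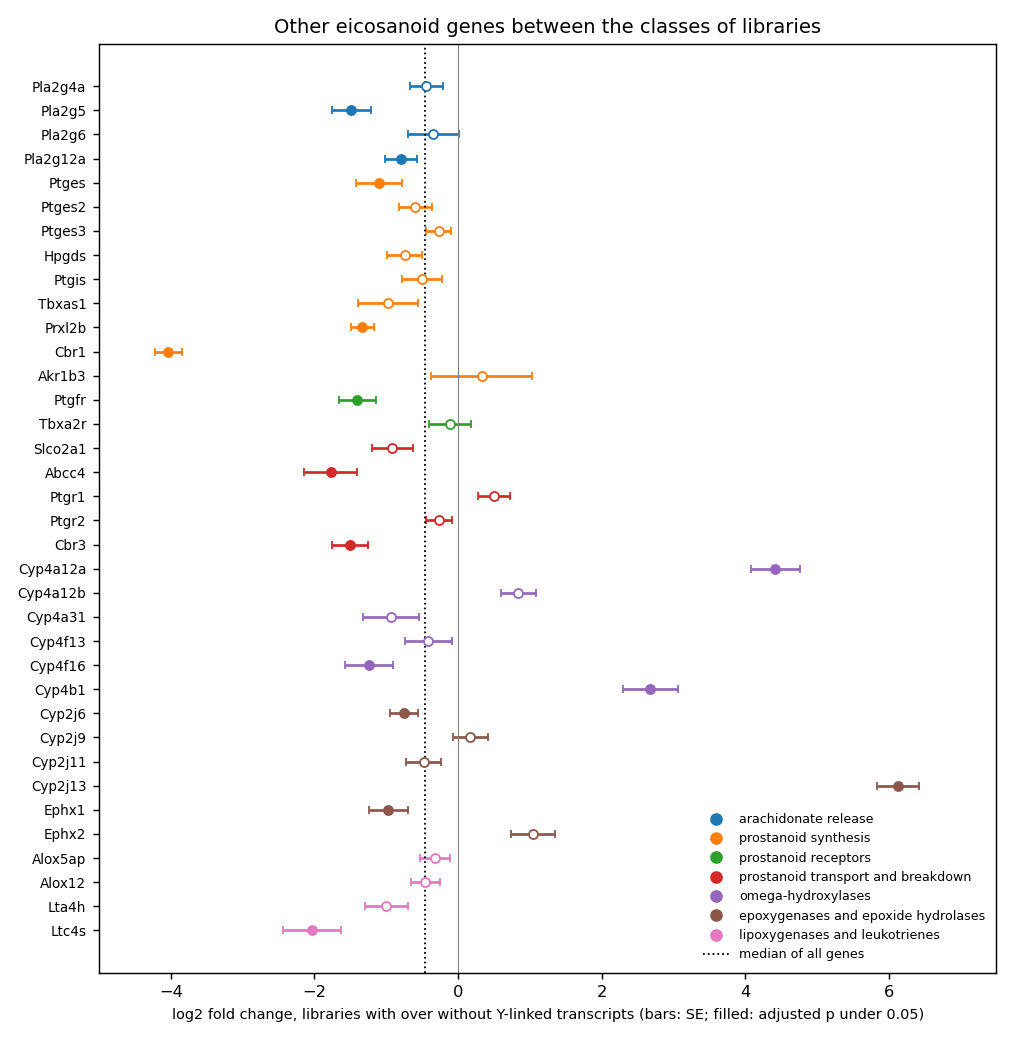
Log2 fold change of libraries with over libraries without Y-linked transcripts for the 36 other eicosanoid genes tested, ordered and coloured by role, with bars for the standard error, filled points for a limma adjusted p under 0.05 and a dotted line at the median of all genes (−0.46). Cyp2j13 (6.13), Cyp4a12a (4.42) and Cyp4b1 (2.68) lie far right, and Cbr1 (−4.03) far left.

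Cyp4a10 and Cyp4a14 are textbook targets of PPAR alpha, the nuclear receptor that turns on fatty acid oxidation, so Ppara, its partner Rxra and 12 other target genes were read as well. All 14 were tested. By age 0 were called, 12 log2 fold changes were negative and the median was −0.24, beside −0.11 over all genes. There were 7 positive and 7 negative with quantile normalization, and 8 positive and 6 negative with mitochondrial genes removed (median 0.048). The smallest p was that of the thiolase gene Acaa1b (−1.04, SE 0.53). Between the classes limma called 5 of 14 lower with Y-linked transcripts and 0 higher, against a background of 11.3% and 1.13% of all genes. The median of the list was −0.76, beside −0.46 over all genes. Among the 5 were the kinase Pdk4 (log2 fold change −1.97, limma adjusted p = 0.0183), Acaa1b (−1.35, 0.0367), the dehydrogenase Acadm (−0.70, 0.0355) and the carnitine carrier Slc25a20 (−0.86, 0.0260). With size factors 1 of the 14 was called, lower, beside 2.61% of all genes called lower. The count was likewise 1 without aged replicate 2, aged replicate 3, adult replicate 1 or adult replicate 3. Pdk4 had 24.5, 20.3, 3.48 and 3.39 TPM in aged and 24.9, 9.12, 2.10 and 8.76 TPM in adult kidneys. Replicates 3 and 4 were the low ones in both age groups, as for Cyp4a14.

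Across the 8 libraries the gene most like each member was found by Pearson correlation of log2(TPM + 1) over 7388 genes with a mean of at least 5 TPM. These are descriptions over 8 points that share the TPM scale and the split by Y-linked transcripts. Cyp4a10 was closest to Sfxn2 (r = 0.997), Slc39a13 and Laptm4b, and Cyp4a14 to Kyat3 (0.991), Slc22a29 and Fabp1. Cyp2c44 followed Cbx1 (0.987), Kctd6 and Kng2. Cyp2j5 was closest to Gcnt1 (0.987), Fam210a and Casc4. Among prostaglandin genes, Ptgs1 was closest to Sec23ip (0.986), Cox6b2 and Rexo4, Ptgds to Map3k10 (0.978), Cldn19 and Nfkb1, and Hpgd to Mmd (0.993), Arg2 and Gm26992. Ptger3 was closest to Misp (0.996), Akr1c19 and Lgals3, and Ptger1 to Gstm2 (0.956), Cldn4 and Mras. Among the members themselves Cyp4a14 and Ptger3 had r = 0.974, Cyp4a10 and Cyp2c44 0.964, and Cyp2j5 lay between −0.416 with Hpgd and 0.123 with Cyp4a10.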

How the data were processed

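Kidney RNA of 4 aged and 4 adult animals was measured, 1 library per animal (the design text states 4 animals per group). Per the labels' protocols, a Qiagen kit was used for extraction and a stranded TruSeq kit for libraries, with selection of polyadenylated RNA. The authors deposited TPM in 1 table of 30153 gene identifiers. Named in the submitters' processing notes, without versions or roles, are kallisto, DESeq2 and GRCm38, and the annotation is not given in the sources used here. TPM keeps no depth, so the depth of the libraries is unknown, and no counting intervals are given. Columns were matched to samples by name.

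Of the identifiers 29732 (98.6%) matched a symbol, and 7 that shared one were summed. Aged and adult libraries were compared on log2(TPM + 1) with limma 3.58.1 (R 4.3.3, variance trended on intensity) over all genes averaging at least 1 TPM, with Benjamini-Hochberg adjustment and a threshold of 0.05. On this scale the change of low genes is understated. The same fit with the class of Y-linked transcripts (summed above or below 10 TPM) and an interaction term gave the class comparisons. Exact two-sided permutation tests (numpy 2.4.6) were used for summed markers. The fit was tested on simulated data. The members, lists, split and tests were chosen with earlier results of these data known. All members were named, and of the other lists each gene past the threshold or else the one with the smallest p. Alternatives were pseudocounts of 0.1 and 5, other filters and scalings, other variance models, a replicate block, leaving out each library in turn, and each class or age group alone. Some results are not reported here.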

Additional observations from a re-analysis of the deposited data

Results flagged for a closer look

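In 74 groups of 4 libraries (37 genes in each age group), 2 held a library far from the other 3 by Dixon's ratio of gap to range. Chance flags about 1 in 20 groups if the 4 values come from 1 normal population. Here each age group mixes 2 libraries of each class. For genes that differ between the classes that rate does not apply, and a single odd library is harder to flag. Akr1b3, an aldose reductase that can make prostaglandin F, had 336.01 TPM in adult replicate 2, while the other adult libraries had 46.8 to 62.7 TPM (ratio 0.945). Tbxa2r, the thromboxane receptor, had 0.168 TPM in aged replicate 3, while the other aged libraries had 1.24 to 1.31 TPM (ratio 0.941).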

How the results depend on the processing

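By age 0 members were called under any alternative. The count of all genes by age was 1 with array weights (Gm15446), 3 in libraries without Y-linked transcripts (Gm4737, Gm28438 and Apoo-ps) and 16 in those with them, against 0, and ranged from 0 to 2 with 1 library left out. In libraries with Y-linked transcripts 1 gene of the PPAR alpha list was called by age. With 1 library left out, the age log2 fold change ranged from −2.09 to 0.17 for Cyp4a14, −0.40 to 0.10 for Cyp2j5, −1.01 to 0.31 for Cyp2c44, −0.089 to 0.32 for Ptgs1, −0.27 to 0.17 for Ptger1 and −0.27 to 0.51 for Hpgd. Signs also turned for Cyp4a14 with array weights (0.23), for Cyp2j5 with quantile normalization (0.17) and mitochondrial genes removed (0.11), for Cyp2c44 with mitochondrial genes removed (0.032) and in libraries without Y-linked transcripts (0.53), and for Ptger1 with size factors (0.0086), mitochondrial genes removed (0.12), array weights (0.24) and in libraries with Y-linked transcripts (0.39). Ptger1 has no value at a mean of at least 5 TPM, being below it.

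The count of genes between the classes, 1464, was 762 with no filter, 643 with size factors, 636 with quantile normalization, 677 with mitochondrial genes removed, 4291 with array weights, 131 in aged and 76 in adult libraries alone, and 392 to 1953 with 1 library left out. Members called, 7 in all, numbered 3 in aged and 1 in adult libraries alone, where fewer samples enter. Other eicosanoid genes called, 15, numbered 8 with no filter, 25 with array weights, 5 in aged and 3 in adult libraries, and 8 to 17 with 1 library left out. PPAR alpha list genes called, 5, numbered 1 with no filter, size factors or quantile normalization, 2 with mitochondrial genes removed and in aged libraries, 9 with array weights, 0 in adult libraries, and 1 to 6 with 1 library left out. The class log2 fold change of Cyp2j5 ranged from −0.011 to 0.51 with 1 library left out. The count of interaction terms, 4, was 0 with no filter, 2 with size factors and 1 to 16 with 1 library left out. Interaction terms changed sign with mitochondrial genes removed for Ptgs1 (0.080), Ptgds (0.059) and Hpgd (0.018), and for Ptger3 with a pseudocount of 0.1 (−0.026), size factors (−0.14) and quantile normalization (−0.17). With 1 library left out they ranged from −0.37 to 0.94 for Cyp2j5, −0.42 to 0.23 for Ptgs1, −0.48 to 0.26 for Ptgds, −0.071 to 0.11 for Ptger3 and −0.37 to 0.077 for Hpgd. Except where stated, the cause was not tested.

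With the replicate number as a replicate block, limma called 0 genes and 0 members by age. Same-numbered libraries correlated in their deviations from the group means at 0.0380, 0.181, 0.486 and 0.415 for replicates 1 to 4. Replicates 3 and 4 each correlated best with their own number, and replicates 1 and 2 did not. Same-numbered libraries also share the class of Y-linked transcripts. Correlations ran from 0.0380 to 0.572 within a class and from −0.527 to −0.123 between the classes. These values therefore cannot tell whether the numbers mark pairs.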
